A study of Osmia excavata with 6 samples.

Results

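The 10 genes described here were grouped by their descriptions as ecdysone response genes and nuclear receptors of the solitary mason bee Osmia excavata. They were taken from 26 assembled genes whose protein description names a bee genus and matches ecdysone, the Broad-Complex, a nuclear receptor or nuclear hormone receptor, retinoic acid receptor RXR, ultraspiracle, hormone receptor 4 or FTZ-F1. Of these, the 10 with the highest mean of the 6 deposited TPM values (a level scaled for transcript length and for the library's total) were kept. The table holds 37061 genes in all, and 10751 of them name a bee genus. The members were chosen by their mean TPM, so the order of their levels is a description. The rule did not rank the difference between groups, but a gene can enter through high values in a single group.

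Ecdysone is the steroid hormone that times moulting and metamorphosis in insects. Its active form binds the ecdysone receptor EcR, which works on DNA as a pair with ultraspiracle, the insect form of RXR. In Drosophila the pair switches on early genes such as the Broad-Complex, E74 and E75, whose products in turn control later genes, and FTZ-F1 follows when the hormone declines. In adult insects the same receptors are also known from egg formation, metabolism and the nervous system.

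RNA was sequenced from 3 libraries labelled control and 3 labelled Water immersion, a treatment used to promote emergence from the cocoon. By their titles the immersion libraries form a decocooning group, so the effect of wetting cannot be told apart from that of emergence. Where a tissue would stand, the labels repeat the species, and the sources used here give no body part, sex, age or stage of the bees, no pooling and no time of sampling. Libraries were made from RNA captured with oligo(dT). Nothing states that replicates are separate animals, so p-values measure the spread between these samples only, which may be technical.

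Estimated counts summed to between 16765886 and 19953734 per library. Genes matching the nematode Caenorhabditis held 3464 CPM (counts scaled to the library's total) in control 1, 0.908 in control 2 and 0.208 in control 3, against 14053 to 14978 CPM in the immersion libraries. Genes matching mammals held 18018 CPM in control 1, at most 275 in the other controls and 5982 to 10038 after immersion. Control 1 was therefore the 1 control that shared these foreign reads with the immersion libraries. On the first principal component of the bee genes, which held 75.8% of the variance, control 1 (-12.4) lay nearer the immersion libraries (-37.8 to -25.4) than controls 2 (27.0) and 3 (74.05). Results below are given with and without controls 1 and 3 where the call depends on them.

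The members by mean TPM were Pep (TRINITY_DN23163_c0_g1, 45.1), RXR (TRINITY_DN1654_c0_g1, 39.5), the longer FTZ-F1 gene (TRINITY_DN2193_c0_g1, 30.4), EcR (TRINITY_DN3061_c0_g1, 30.1) and ecd (TRINITY_DN1136_c2_g1, 25.3). The shorter FTZ-F1 gene (TRINITY_DN1493_c2_g2, 19.8), HR96 (TRINITY_DN9498_c0_g3, 16.4) and 3 genes described as Broad-Complex core proteins completed the set. The last are called br-A (TRINITY_DN4056_c0_g2, 19.3), br-B (TRINITY_DN1981_c0_g1, 13.9) and br-C (TRINITY_DN953_c0_g1, 11.8) here. The first gene outside was HR3 (TRINITY_DN2987_c0_g1) at 10.6 TPM, against 11.8 for br-C just inside. Mean TPM of br-B and br-C was 18.5 and 15.2 in the controls and 9.27 and 8.50 after immersion. After immersion both stood below TRINITY_DN1000_c1_g1, a match left outside, with 9.01 TPM in the controls and 10.9 after immersion. The median mean TPM of all bee genes was 16.8, so the members ran from the 41.3rd to the 76.3rd percentile of bee genes and were of middle abundance. In the controls the order of neighbours was not separated by their spread: RXR had 46.6 ± 9.08 TPM, EcR 40.9 ± 21.3 and the longer FTZ-F1 gene 39.6 ± 14.8 (SD, n = 3). After immersion ecd, at 25.4 ± 2.77 TPM, stood above EcR at 19.2 ± 1.57 (SD, n = 3), and their ranges did not overlap.

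The deposited protein domains add to the descriptions, but at most 1 domain is listed per member, so a domain not listed may still be present. RXR, EcR, HR96 and the longer FTZ-F1 gene were listed with the ligand-binding domain of hormone receptors (4 members). The shorter FTZ-F1 gene was the 1 member listed with the receptors' zinc-finger DNA-binding domain, which does not mean that the other receptors lack it. The FTZ-F1 genes could be separate ends of a single gene, which the table does not settle. All 3 Broad-Complex genes carried the BTB domain, a protein pairing domain of this family. The description of br-C names the Broad-Complex but its Swiss-Prot match is bric-a-brac 2, another BTB protein, so its identity is uncertain. Pep and ecd are not receptors. Pep is a zinc finger protein found on ecdysone-induced chromosome puffs in Drosophila, where it binds RNA and single-stranded DNA. Ecdysoneless, ecd, is needed for ecdysone production in Drosophila and carried the SGT1 domain. It is in the set because its description holds the word ecdysoneless.

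None of the 10 members passed the test of immersion against control (0 at an adjusted p of 0.05, edgeR's quasi-likelihood test adjusted over all bee genes), and 0% of the 8949 bee genes tested passed. All 10 members had passed the filter on low counts. Log2 fold changes were negative in 9 members and positive in 1, with a median of -0.72, whereas the median over all tested bee genes was 0.02. At an unadjusted p under 0.05, 6 members were lower and 0 higher, set beside 20.9% of bee genes lower and 14.3% higher. In the same 6 members (RXR, the longer FTZ-F1 gene, EcR and the 3 Broad-Complex genes) the immersion libraries all stood under the lowest control in normalised CPM (CPM over bee-gene counts, scaled by TMM factors). Of all bee genes 22.4% lay wholly below the controls on that scale and 24.2% wholly above. In deposited TPM 5 members lay wholly below, EcR being the exception, beside 19.8% of bee genes. These counts include br-B and br-C, the members of lowest mean TPM, whose level was higher in the controls. A choice by mean TPM can favour such genes.

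**Figure D1:**
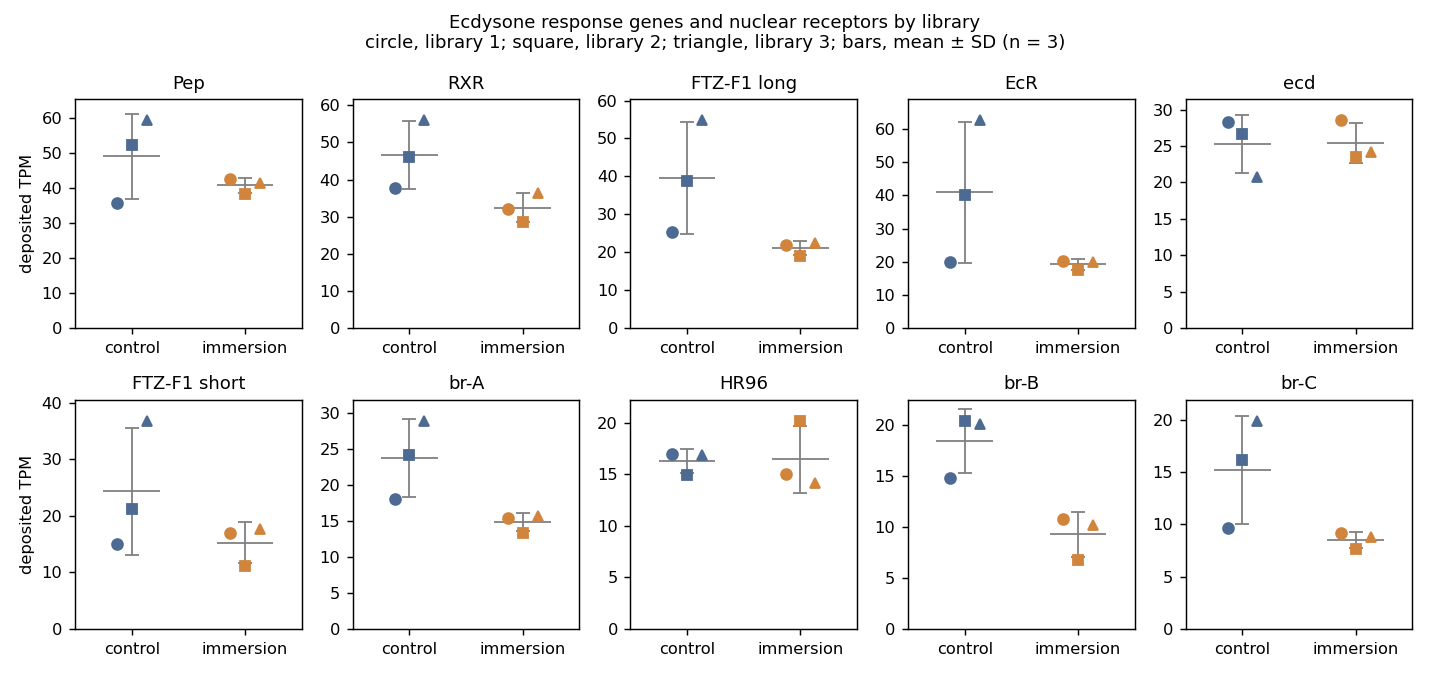
Deposited TPM (y axis, from 0) of each member in the 3 control and 3 immersion libraries; circles, squares and triangles are libraries 1, 2 and 3, and grey bars are the mean ± SD (n = 3). Control 3 is the highest library in 7 members and immersion 2 the lowest in 7. The groups overlap in Pep, EcR, ecd, the shorter FTZ-F1 gene and HR96.

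EcR, which binds the hormone, stood at 20.02, 40.02 and 62.69 TPM in controls 1, 2 and 3 and at 20.34, 17.41 and 19.85 TPM in immersion libraries 1, 2 and 3. Control 1 thus lay within the immersion range, and the controls differed among themselves by a factor of 3.13, the widest spread of any member. The immersion libraries differed by a factor of 1.17. In normalised CPM the means were 305 ± 154 and 151 ± 6.95 (SD, n = 3), a log2 fold change of -1.02 ± 0.35 (SE, edgeR adjusted p = 0.11). The log2 fold change was -1.32 without control 1 (adjusted p = 0.00736) and -0.57 without control 3 (adjusted p = 0.131).

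RXR, the partner of EcR, had 37.85, 46.04 and 55.98 TPM in the controls and 32.15, 28.62 and 36.44 TPM after immersion. The groups did not overlap, but control 1 exceeded immersion 3 by a small margin. Its log2 fold change was smaller than that of its partner, -0.46 ± 0.18 (SE), with an edgeR adjusted p of 0.124. Without control 1 it was -0.55 (adjusted p = 0.0261), and without control 3 it was -0.32 (adjusted p = 0.179).

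The longer FTZ-F1 gene, a receptor that acts in Drosophila after the hormone peak, had 25.25, 38.77 and 54.80 TPM in the controls and 21.89, 18.92 and 22.48 TPM after immersion. No immersion library reached the lowest control, which was control 1. The log2 fold change was -0.88 ± 0.25 (SE, edgeR adjusted p = 0.0917), against -1.09 without control 1 (adjusted p = 0.00741) and -0.59 without control 3 (adjusted p = 0.0642). The shorter gene had 15.02, 21.23 and 36.80 TPM in the controls and 16.99, 11.15 and 17.72 TPM after immersion. Here control 1 lay below 2 of the immersion libraries, so the groups overlapped. This gene rests on few reads, with group means of 12.7 ± 6.48 (control) and 7.49 ± 1.51 (immersion) normalised CPM (SD, n = 3), and its log2 fold change was -0.76 ± 0.39 (SE, edgeR adjusted p = 0.185). Without control 1 it was -1.03 (adjusted p = 0.0296), and without control 3 it was -0.28 (adjusted p = 0.486).

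Among the Broad-Complex genes, transcription factors that specify the pupal stage in Drosophila, br-B had the lowest p of all members. It stood at 14.86, 20.41 and 20.13 TPM in the controls and at 10.82, 6.78 and 10.22 TPM after immersion. All controls were above all immersion libraries, and control 1 was nearer to the other controls than in EcR. Normalised CPM averaged 40.6 ± 5.24 and 19.4 ± 3.85 (SD, n = 3), with a log2 fold change of -1.06 ± 0.21 (SE) and an edgeR adjusted p of 0.0882. It was the only member called without control 3 (log2 fold change -0.98, adjusted p = 0.0417), where 2.97% of bee genes were called lower, and it stood at -1.16 without control 1 (adjusted p = 0.00775).

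The other Broad-Complex genes separated the groups by less. br-A had 18.10, 24.22 and 28.94 TPM in the controls and 15.46, 13.42 and 15.70 TPM after immersion, a log2 fold change of -0.67 ± 0.19 (SE, edgeR adjusted p = 0.0917). br-C had 9.61, 16.11 and 19.85 TPM in the controls and 9.13, 7.62 and 8.74 TPM after immersion, a log2 fold change of -0.77 ± 0.24 (SE, edgeR adjusted p = 0.0996). In both, control 1 was the lowest control, and in br-C it was only slightly above immersion 1. Without control 1 their log2 fold changes were -0.81 (adjusted p = 0.00806) and -0.98 (adjusted p = 0.00701), and without control 3 they were -0.52 (adjusted p = 0.075) and -0.53 (adjusted p = 0.0945).

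HR96 and ecd had nearly equal means in the groups. HR96, in Drosophila a receptor that responds to foreign compounds and dietary lipids, had 17, 14.97 and 16.92 TPM in the controls and 15.03, 20.18 and 14.21 TPM after immersion. The groups overlapped, and the log2 fold change was -0.04 ± 0.14 (SE, edgeR adjusted p = 0.83). For ecd the values were 28.30, 26.70 and 20.80 TPM in the controls and 28.54, 23.45 and 24.12 TPM after immersion. The lowest library was control 3, the reverse of most members, and the log2 fold change was 0.03 ± 0.18 (SE, edgeR adjusted p = 0.909). The sign of both depended on the scaling: under DESeq2 or RLE size factors ecd stood at 0.00 with a minus sign, and with upper-quartile factors HR96 stood at 0.07. Pep had 35.76, 52.40 and 59.49 TPM in the controls and 42.57, 38.48 and 41.64 TPM after immersion, so control 1 lay below every immersion library. Its log2 fold change was -0.24 ± 0.19 (SE, edgeR adjusted p = 0.346), against -0.39 without control 1 (adjusted p = 0.0334) and -0.08 without control 3 (adjusted p = 0.733).

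The order of the libraries recurred between members. Control 3 was the highest of the 6 libraries in 7 members, and by TPM it was the highest in 37.0% and the lowest in 41.7% of bee genes. Control 1 was the lowest control in 8 members, and in 44.0% of bee genes. Immersion 2 was the lowest library in 7 members and in 29.6% of bee genes. Without control 1, 8 members were called lower, all but HR96 and ecd, beside 27% of bee genes called lower in that fit, and the remaining groups then differ in foreign reads as well, so these cannot be told apart from immersion there. In normalised CPM the same number, 8, then lay wholly below the controls, beside 36.5% of bee genes. DESeq2 called 5 members lower (EcR, the longer FTZ-F1 gene, br-A, br-B and br-C) beside 15.2% of bee genes, and limma-voom with library weights called 8 lower beside 33.1%. No member (0) was called by limma-voom when libraries had equal weight, nor by the non-legacy form of edgeR's test.

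Ratios of TPM within a library do not depend on library scaling, but they can still carry the trend with transcript length given below. EcR has 9315 bases, RXR 6827 and ecd 2447. The 7 ratios between members were computed after the values had been seen. EcR stood at 0.529, 0.869 and 1.12 times RXR in controls 1, 2 and 3 and at 0.633, 0.608 and 0.545 times RXR after immersion. Control 1 had the lowest ratio of all, so the groups overlapped (exact permutation test, two-sided p = 0.4, adjusted p = 0.4). EcR over ecd was 0.707, 1.5 and 3.01 in the controls and 0.713, 0.742 and 0.823 after immersion, again with control 1 at the lower end. With 3 libraries against 3 the exact test cannot go below 0.1. The lowest p among the 7 ratios was 0.2, for RXR over ecd and for br-B over br-A, and all adjusted p were 0.4. The shorter FTZ-F1 gene kept between 0.548 and 0.788 of the TPM of the longer one in all 6 libraries, while each varied over a wider range.

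**Figure D2:**
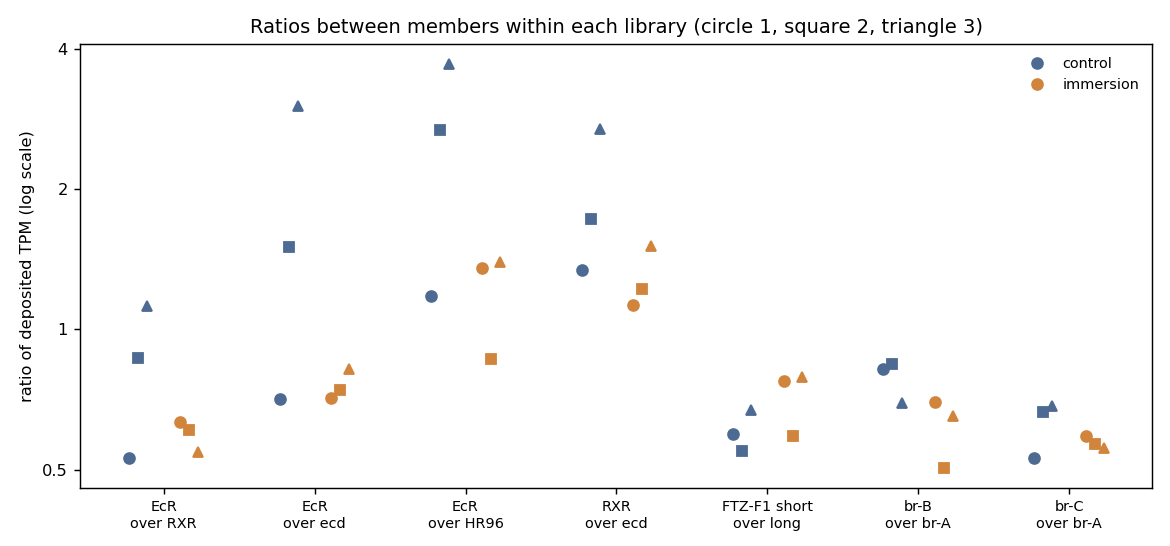
Ratio of deposited TPM between pairs of members (y axis, log scale) in each library; blue marks are controls, orange marks immersion, and circles, squares and triangles are libraries 1, 2 and 3. In EcR over RXR and EcR over ecd, controls 2 and 3 lie above all immersion libraries and control 1 lies below them.

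Members differed by transcript length, and so did all bee genes. The members had a median length of 4455 bases (986 to 9315), against 2154 for all bee genes in the table. Among tested bee genes of 6000 bases and over the median log2 fold change stood at -0.66, and 61.9% were lower at an unadjusted p under 0.05. Those from 3000 to under 6000 bases had a median of -0.21 (27.7% lower), and those from 1000 to under 3000 bases a median of 0.33 (9.31% lower). The 4 members in the longest class, EcR, RXR, br-C and the longer FTZ-F1 gene, ran from -1.02 to -0.46, on both sides of the median of their class. With a trend on transcript length removed from each library, EcR stood at -0.27 (edgeR adjusted p = 0.322), br-C at -0.18 (adjusted p = 0.292) and RXR at 0.07 (adjusted p = 0.672), so that RXR turned direction. The longer FTZ-F1 gene stood at -0.33 (adjusted p = 0.123) and br-A at -0.36 (adjusted p = 0.105). br-B, at 3617 bases, stood at -0.93 (adjusted p = 0.0635), and the shorter FTZ-F1 gene, at 986 bases, moved to -1.29 (adjusted p = 0.14). On that scale 3 members lay wholly below the controls, beside 17.6% of bee genes.

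**Figure D3:**
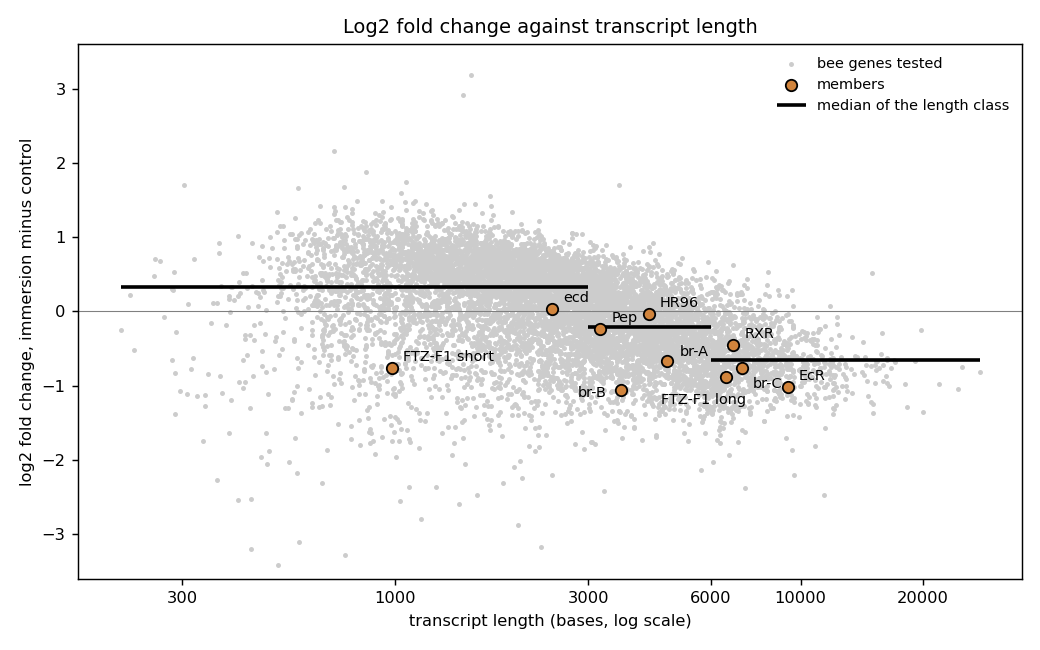
Log2 fold change, immersion minus control (y axis), against transcript length in bases (x axis, log scale) for 8949 tested bee genes (grey), with the 10 members in orange and the median of each of 4 length classes as a black line; 8 genes lie beyond the y axis. The medians step from 0.33 at 1000 to under 3000 bases to -0.66 at 6000 bases and over, and br-B and the shorter FTZ-F1 gene lie furthest below the median of their class.

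A term for the libraries with worm reads, which leaves control 1 as the single control of that kind and assumes that it varies as the rest do, gave log2 fold changes of -0.84 for br-B (edgeR adjusted p = 0.507), -0.35 for the longer FTZ-F1 gene (adjusted p = 0.759) and -0.34 for br-A (adjusted p = 0.703). EcR stood at -0.09 (adjusted p = 0.954). In that fit Pep and the shorter FTZ-F1 gene had positive values, 0.14 and 0.03. No member was called there (0), and 1 bee gene was.

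**Figure D4:**
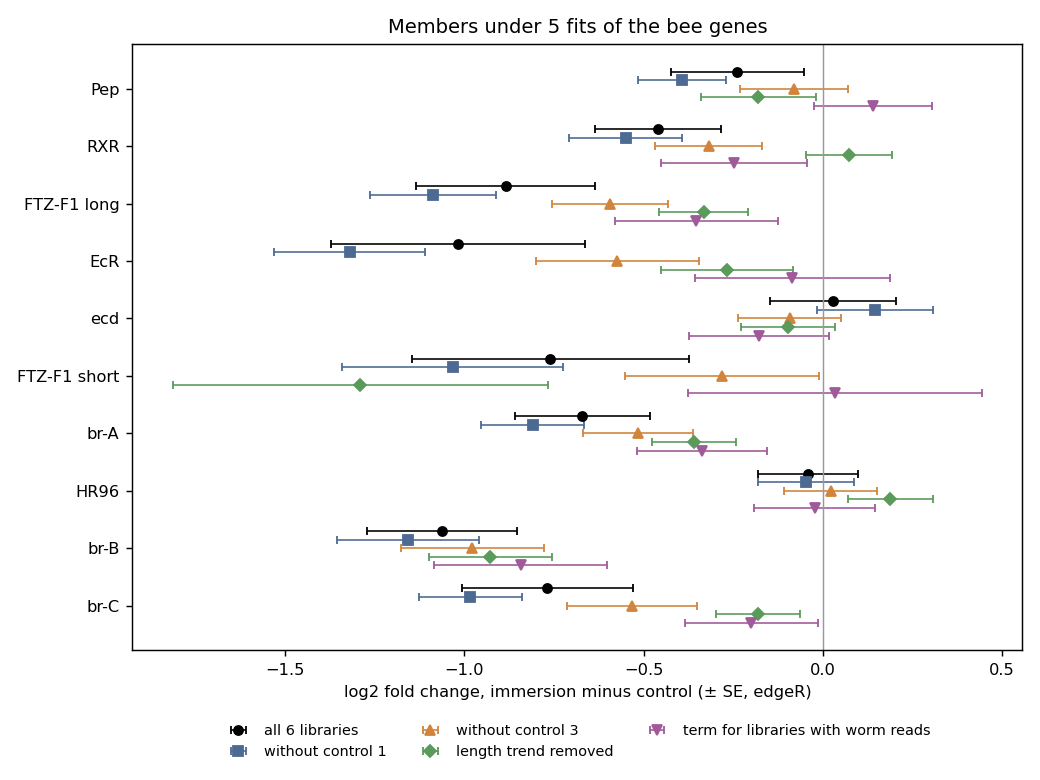
Log2 fold change, immersion minus control, with its standard error (x axis) for each member under 5 edgeR fits of the bee genes: all 6 libraries, without control 1, without control 3, with the length trend removed, and with a term for libraries with worm reads. br-B stays between -1.16 and -0.84 in all 5, while EcR moves from -1.32 to -0.09.

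Of the 16 matching genes below the top 10, whose mean TPM ran from 1.42 to 10.6, 11 passed the filter, and the 5 others were fragments under 400 bases. Of those tested, 3 were lower and 0 higher at an unadjusted p under 0.05 and 0 passed after adjustment in edgeR. The shares over all bee genes were 20.9% lower and 14.3% higher. The 3 lower genes were long, with 5219, 6358 and 8939 bases. Log2 fold changes of the 11 tested genes ran from -1.37 to 0.28. The ends of that range, named after their values were seen, were a gene described as like E74 (TRINITY_DN3045_c2_g1) and 1 of the genes described as E78C (TRINITY_DN1000_c1_g1), a receptor induced by ecdysone in Drosophila. The former had 4.62, 8.10 and 10.08 TPM in the controls and 3.10, 1.9 and 3.48 TPM after immersion, without overlap (edgeR adjusted p = 0.0898). This E78C gene had 7.79, 10.27 and 8.96 TPM in the controls and 10.32, 10.54 and 11.71 TPM after immersion (edgeR adjusted p = 0.299). In TPM the lowest immersion library stood just above the highest control. In normalised CPM the groups overlapped, with control 2 at 13.63 and immersion 1 at 13.62. The other tested genes described as E78C, TRINITY_DN1000_c1_g2 and TRINITY_DN19303_c0_g2, had negative log2 fold changes of -0.43 and -1.15 (edgeR adjusted p = 0.318 and 0.159). HR3, which in Drosophila is an early-late receptor upstream of FTZ-F1, had 7.80, 13.35 and 20.04 TPM in the controls and 8.51, 5.70 and 8.48 TPM after immersion, with control 1 inside the immersion range (log2 fold change -0.69 ± 0.35, SE, edgeR adjusted p = 0.184).

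E75, an early ecdysone response gene and itself a nuclear receptor, fell outside the rule because its 3 genes have descriptions naming wasps or an ant, and it is given here after its values were seen. The gene TRINITY_DN388_c1_g2 had 300.35, 352.96 and 477.63 TPM in the controls and 333.60, 343.23 and 343.61 TPM after immersion, well above any member. Its TPM was 4.2 times its CPM per 1000 bases of the listed length, against 1.46 to 2.27 in the members, so the length behind that level is uncertain. Another E75 gene, TRINITY_DN388_c1_g4, had 23.80, 41.50 and 58.05 TPM in the controls and 14.51, 11.43 and 18.57 TPM after immersion, without overlap. In the fit on every gene of the table their log2 fold changes were -0.42 ± 0.23 and -1.39 ± 0.33 (SE), with edgeR adjusted p of 0.274 and 0.163. The third, TRINITY_DN5442_c0_g4, had at most 8.06 TPM, with a log2 fold change of -1.17 ± 0.50 (SE, edgeR adjusted p = 0.227).

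Related genes from fixed lists, which were chosen with earlier results of these data known, are described by counts. Of all tested bee genes, 20.9% were lower and 14.3% higher at an unadjusted p under 0.05 (edgeR). Moulting transcription factors outside the rule were lower at an unadjusted p under 0.05 in 4 of 4 tested genes, with a median log2 fold change of -1.08 (0 passed after adjustment). These 4 genes had 5751 to 8431 bases. Of bee genes from 3000 to under 6000 bases 27.7% were lower, and of those of 6000 bases and over 61.9%. Kr-h1 (TRINITY_DN4510_c0_g1), the juvenile hormone response factor that opposes metamorphosis, was the most abundant with 301.55, 345.97 and 336.49 TPM in the controls and 236.36, 214.53 and 235.97 TPM after immersion. The groups did not overlap and the controls were close together (log2 fold change -0.43 ± 0.14, SE, edgeR adjusted p = 0.105). E74 (TRINITY_DN6725_c0_g1), an early ecdysone response factor, had 16.90, 33.34 and 39.19 TPM in the controls and 17.23, 10.55 and 17.07 TPM after immersion, with control 1 inside the immersion range in TPM. foxo (TRINITY_DN763_c4_g1), a factor of insulin signalling, had 28.56, 43.13 and 51.11 TPM in the controls and 22.17, 15.24 and 19.82 TPM after immersion, without overlap.

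The list for ecdysteroid synthesis and breakdown matched only E74 (1 gene), a target of the hormone and no enzyme of its synthesis, so synthesis is not analysed here. Among other nuclear receptors 1 of 5 tested genes was lower and 0 higher at an unadjusted p under 0.05 (median log2 fold change -0.35). The shares over all bee genes were 20.9% lower and 14.3% higher. The estrogen-related receptor ERR (TRINITY_DN5689_c0_g1), a regulator of energy metabolism, had 84.45, 103.28 and 145.97 TPM in the controls and 92.22, 84.84 and 102.79 TPM after immersion, with overlap. HNF4 (TRINITY_DN859_c0_g1), a receptor of fat metabolism, had 34.42, 36.15 and 38.66 TPM in the controls and 30.95, 26.94 and 26.23 TPM after immersion, without overlap. A gene described as photoreceptor-specific nuclear receptor, TRINITY_DN18268_c0_g1, was listed at 0 in control 1 and immersion 1 and reached 21.65 TPM in immersion 3, and it did not pass the filter.

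Among nuclear receptor cofactors 4 of 7 were lower and 0 higher at an unadjusted p under 0.05 (median log2 fold change -0.54). The shares over all bee genes were 20.9% lower and 14.3% higher. NCOA2 (TRINITY_DN1044_c1_g1), of the coactivator family that in Drosophila includes taiman, a partner of EcR, had 50.20, 66.90 and 91.88 TPM in the controls and 41.85, 36.45 and 42.48 TPM after immersion, without overlap. NCOA7 (TRINITY_DN569_c0_g1) had 99.25, 125.35 and 146.79 TPM in the controls and 79.99, 62.36 and 78.22 TPM after immersion, also without overlap, and its Swiss-Prot match is the kinase AAK1. NRBF2 (TRINITY_DN3508_c0_g2) went the other way, with 60.99, 35.98 and 25.30 TPM in the controls and 61.54, 65.38 and 66.65 TPM after immersion. In TPM control 1 lay just below the immersion libraries. In normalised CPM control 1 (57.9) lay above immersion 1 (56.4).

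In the list of hormone transport and peptide signals of moulting, 5 of 8 were lower and 0 higher at an unadjusted p under 0.05 (median log2 fold change -0.60). Over bee genes the share lower rose with length, from 9.31% at 1000 to under 3000 bases to 61.9% at 6000 bases and over. The shares over all bee genes were 20.9% lower and 14.3% higher. The list's most abundant genes were organic anion transporters, a family that in Drosophila includes the importer of ecdysone. Which of these bee genes carries the hormone is not known here. TRINITY_DN12377_c0_g5 had 123.79, 195.92 and 241.31 TPM in the controls and 114.75, 87.01 and 85.21 TPM after immersion, and TRINITY_DN6035_c0_g1 had 43.57, 62.21 and 58.56 TPM against 39.47, 35.01 and 35.53 TPM. In both the groups did not overlap. TRINITY_DN1492_c0_g2 had 15.20, 23.72 and 29.50 TPM in the controls and 18.64, 18.02 and 16.83 TPM after immersion, with control 1 the lowest of all.

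Tissue marker lists did not all move alike. Over all bee genes 20.9% were lower and 14.3% higher at an unadjusted p under 0.05 (edgeR). The share lower was 9.31% from 1000 to under 3000 bases, 27.7% from 3000 to under 6000 bases and 61.9% at 6000 bases and over. The marker lists were not matched for length. In bulk samples fewer cells of a type and less RNA per cell cannot be told apart. Nervous system markers (30 genes, 1 of them, a complexin fragment, at 0 in all libraries) summed to 855, 1250 and 1473 TPM in the controls and 739 to 828 TPM after immersion, and 15 of 24 tested were lower and 0 higher at an unadjusted p under 0.05 (median log2 fold change -0.72). Muscle markers (39 genes, 2 titin fragments at 0) summed to 18272 to 19639 TPM in the controls and 14840 to 25290 TPM after immersion, with 22 of 35 lower and 0 higher (median -0.88). Fat body markers (8 genes, 0 at 0), led by vitellogenin, summed to 6068, 10563 and 29523 TPM in controls 1, 2 and 3 and to 6509 to 8122 TPM after immersion, with 4 of 8 lower and 0 higher (median -0.66). Epidermis and cuticle markers (20 genes, 0 at 0) summed to 1888 to 2189 TPM in the controls and 1977 to 2072 TPM after immersion, with 2 lower and 1 higher of 13 (median -0.14). Germ line markers (19 genes, 0 at 0) summed to 399 to 690 TPM in the controls and 516 to 596 TPM after immersion, with 0 lower and 3 higher of 13 (median 0.20). Among controls the nervous system, fat body and germ line sums were lowest in control 1, and the muscle and epidermis and cuticle sums in control 3. Control 1 was the lowest control in 44.0% of bee genes and control 3 in 46.7%. The part of tissue make-up in the members' differences was not tested.

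**Figure D5:**
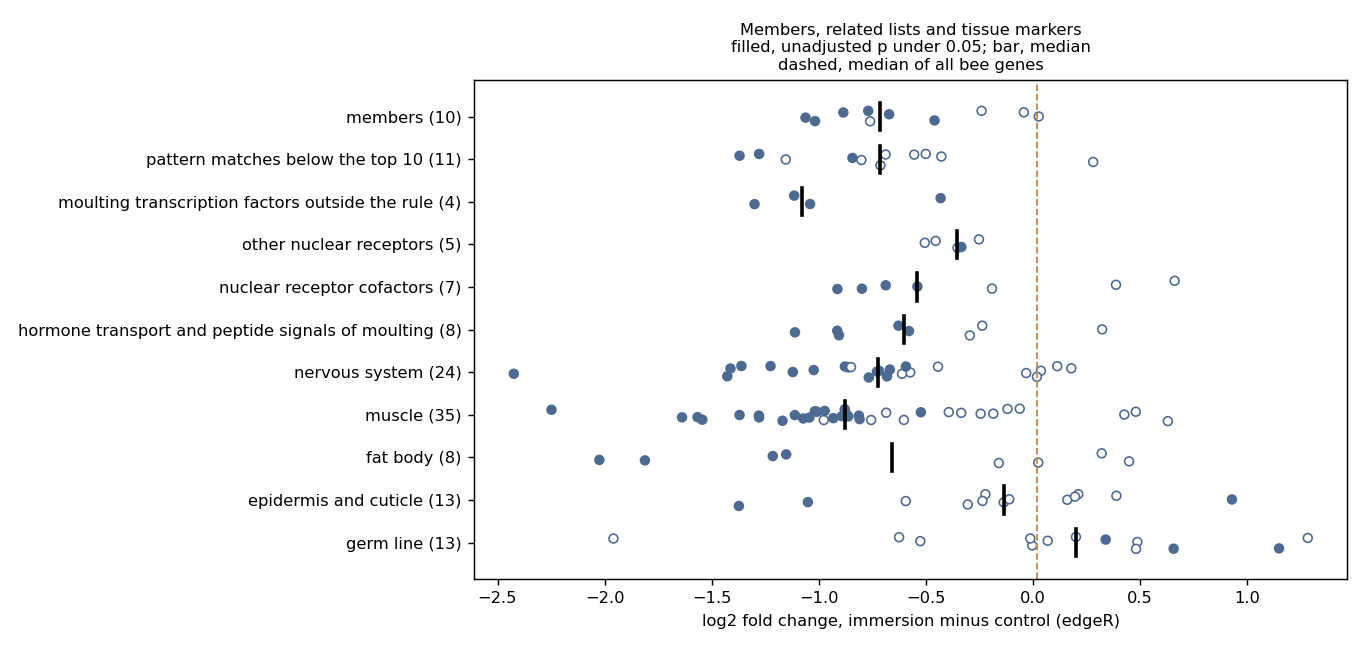
Log2 fold change, immersion minus control (x axis, edgeR), of each tested gene in the 10 members, the matching genes below the top 10, 4 related lists and 5 lists of tissue markers, with the number tested in brackets; filled marks have an unadjusted p under 0.05, bars are list medians and the dashed line is the median of all bee genes, 0.02. The medians of the members (-0.72), the matching genes below the top 10 (-0.71), nervous system (-0.72) and fat body markers (-0.66) lie close together. That of muscle markers is lower (-0.88), and those of germ line and of epidermis and cuticle lie nearest the dashed line.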

How the data were processed

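The authors deposited, for each gene of a de novo assembly, estimated counts that need not be whole and TPM values, with transcript length, protein descriptions and domains. cutadapt 1.9, Salmon and edgeR are the tools listed in the submitters' processing notes, with no role stated, and the sources used here do not give the assembly settings or strandedness. Paralogs, alleles and overlapping or antisense transcripts may share reads in such a table. The members and gene lists were chosen with earlier results of these data known. Members are the 10 pattern matches of highest mean TPM; of each list, up to 3 genes of highest mean TPM that are not members are named.

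After rounding of the estimated counts, groups were compared by edgeR's quasi-likelihood test (version 4.0.16, R 4.3.3; filterByExpr and TMM, a single treatment term, glmQLFit, glmQLFTest, two-sided, Benjamini-Hochberg adjustment, threshold 0.05). The fit covered all genes naming one of the bee genera, so that library sizes do not follow reads of other organisms, and 8949 passed the filter. The standard error is the log2 fold change divided by the root of the F statistic. Alternatives were DESeq2 1.42.0, limma-voom 3.58.1 with and without library weights, edgeR without its legacy option, RLE and upper-quartile factors, other filters, every gene of the table, a loess trend on length (span 0.3) removed, a term for libraries over 100 CPM of worm reads, a block for replicate number, and leaving out the libraries in turn. The main edgeR test, DESeq2 and limma-voom without library weights were tested on simulated data, and the other alternatives were not. The simulation held no length trend and no outlying library. The deposited table holds no sequences, and none are printed. Depth limits the genes of few counts most.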

Additional observations from a re-analysis of the deposited data

How the results depend on the processing

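With all 6 libraries edgeR called 0 bee genes and 0 members. DESeq2 called 2019 bee genes and 5 members, and limma-voom with library weights 6221 and 8. Removal of the length trend called 27 bee genes and 0 members, and lowered the members whose groups do not overlap from 6 to 3 (17.6% of bee genes below the controls, 22.4% before). The term for worm reads called 1 bee gene. With each library left out in turn, calls ran from 0 to 4815 bee genes and from 0 to 8 members; without control 1 they were 4815 and 8, and without control 3 they were 352 and 1. Members not overlapping ran from 6 to 8 when a library was left out, beside 23.6% to 36.5% of bee genes below the controls, with the highest of both without control 1; these counts of members not overlapping under other settings were chosen after seeing the data. Upper-quartile factors shifted the median of all bee genes by 0.11 (log2). Every other alternative run called 0 bee genes and 0 members. The replicate block also called 0 bee genes and 0 members. Same-numbered libraries had correlations of -0.15, 0.14 and 0.17 between their deviations from the group means, so the numbers were not taken to pair them.

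Under the alternative fits 145 member values kept direction and call, 22 kept direction and passed the threshold, and 13 changed direction, 10 of them in ecd and HR96, which stood near 0. Of the differences in deposited TPM, which have no test, 18 kept direction and 2 did not, both of HR96, at 0.00053 (pseudocount 0.1) and 0.0012 (pseudocount 1). For ecd these were -0.00062 (DESeq2), -0.00032 (RLE), -0.099 (length trend removed), -0.18 (worm term), -0.093 (without control 3) and -0.039 (without immersion 1), and with each library left out ecd ran from -0.093 to 0.15. For HR96 the fits gave 0.055 (limma-voom with weights), 0.067 (upper quartile), 0.19 (length trend removed) and 0.022 (without control 3), and with each library left out HR96 ran from -0.094 to 0.022. The others were 0.072 for RXR (length trend removed) and, with the worm term, 0.14 for Pep and 0.033 for the shorter FTZ-F1 gene. The cause was not tested.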
